A study of Rattus norvegicus with 6 samples.

Results

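The genes described here encode the machinery with which the proximal tubule takes solutes and proteins back from the glomerular filtrate. The set was chosen by name and holds 34 genes: 3 endocytic receptor genes, 3 phosphate carriers, 8 amino acid carriers, 3 monocarboxylate and sugar carriers, 4 sulfate and dicarboxylate carriers, 2 sodium and bicarbonate carriers, 4 carriers of urate, ascorbate or fatty acids, 4 brush border enzymes, and Miox, Hnf4a and Pdzk1. A gene belongs to the set when the RefSeq accession of at least 1 array probe, its version dropped, belongs to that symbol. Slc6a20 is listed in the reference table as Slc6a20a and is called so here. All 34 genes were found, on 58 of the 61537 non-control probes of the array, and each of the 58 probes was well above background on all 6 arrays, so no member was lost to the filter on dim probes.

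RNA came from the renal cortex of male Sprague-Dawley (Crl:CD(SD)) rats, bought at 5 weeks of age and kept on a basal diet. The vehicle group, 3 rats, was given corn oil for 4 weeks, and the treated group, also 3 rats, was given phenylbutazone, a non-steroidal anti-inflammatory drug, at 200 mg/kg/day for the same time. Each rat has its own array, and no genetic alteration is named for either group. Vehicle rats 1 and 2 were on one slide, called slide 1, while vehicle rat 3 and all treated rats were on slide 2, which was scanned on another day, so that vehicle rat 3 is the only vehicle animal measured beside treated ones.

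The proximal tubule recovers most of the filtered amino acids, phosphate, bicarbonate, organic acids and small proteins. Carriers in its brush border use the sodium gradient to draw solutes in from the lumen, other carriers pass them on through the basolateral membrane, and peptidases on the brush border split peptides and glutathione into pieces that the carriers accept. Filtered proteins bind megalin and cubilin and are taken in by endocytosis. The transcription factor encoded by Hnf4a drives many of these genes in the mature tubule. Loss of these functions gives the urinary losses of phosphate, amino acids and protein known as Fanconi syndrome.

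In total 0 of the 34 genes passed the test of phenylbutazone against vehicle (limma, Benjamini-Hochberg over 29938 genes, threshold 0.05), and 0 of the 34 differed by as much as 0.5 log2 units between group means. Over all genes 0% passed, and 9.78% differed by at least 0.5 log2 units in either direction. The bicarbonate cotransporter gene Slc4a4 had the largest difference of the 34, 0.48 ± 0.10 log2 units higher in phenylbutazone (SE, n = 3 per group), which is 1.39-fold. Without adjustment, 4 genes had a p under 0.05 and all 4 were higher in phenylbutazone (Slc4a4, Slc5a12, Slc27a2 and Slc7a9), that is 11.8% of the set against 12.2% of all genes (5.97% of all genes higher and 6.24% lower). The groups did not overlap in 7 genes, 6 higher (12.1% of all genes) and 1 lower (9.39% of all genes), or 20.6% of the set against 21.5% of all genes. Both shares of the set lie near those of all genes.

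Across the 34 genes the median difference was 0.06 log2 units, with 20 genes higher and 14 lower, beside a median of 0.02 over all genes, of which 52.8% were higher and 47.2% lower. With quantile normalization 15 were higher and 19 lower, and the median was -0.02, so the set has no settled direction. The 95% interval of the difference lay between -1 and 1 log2 units for 32 of the 34 genes, which for those leaves out a change of 2-fold or more, and between -0.5 and 0.5 for 18. The exceptions to the wider limits were Mme and Slc5a10, whose levels differed widely between rats of the same group. The cortex is a mixture of cells, so fewer proximal tubule cells and less RNA per cell cannot be told apart in these values.

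**Figure D1:**
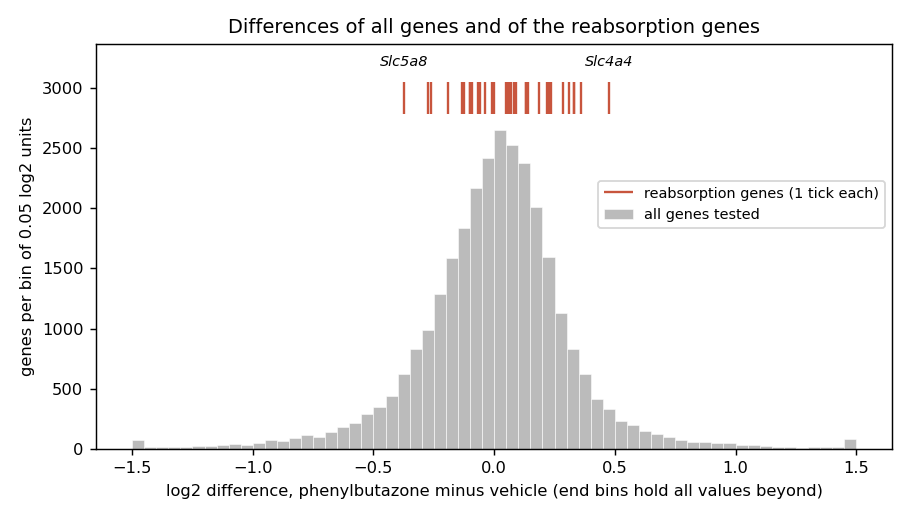
Histogram of the log2 difference, phenylbutazone minus vehicle, of all 29938 genes tested (grey bars, number of genes per bin on the vertical axis), with 1 red tick for each of the 34 reabsorption genes above it. The ticks run from Slc5a8 at -0.37 to Slc4a4 at 0.48. All but Slc4a4 lie between the 5th and 95th percentiles of all genes, -0.52 and 0.47.

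**Figure D2:**
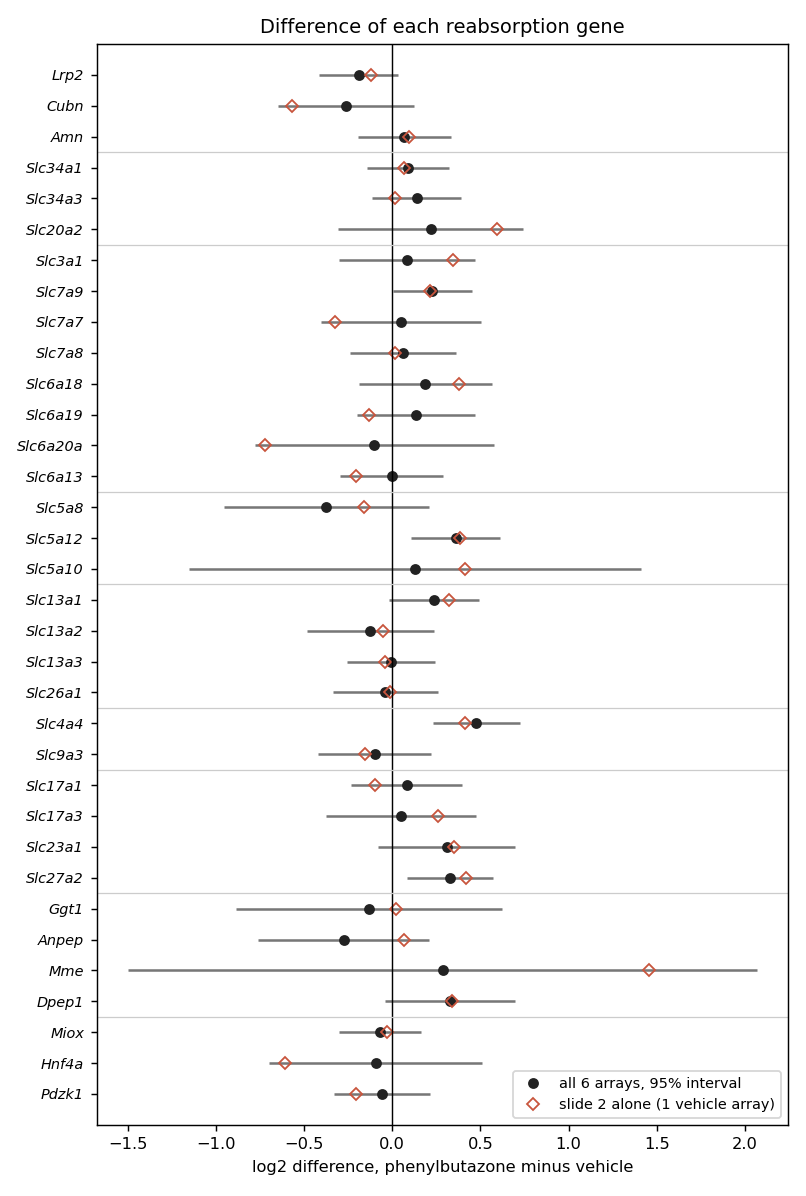
Log2 difference, phenylbutazone minus vehicle, of each of the 34 genes in order of role, with grey lines between roles. Black points and bars give the estimate from all 6 arrays with its 95% interval, and open red diamonds give slide 2 alone, where vehicle rat 3 is the only vehicle array; the interval of 30 of the 34 genes includes 0, and the diamonds of Mme, Slc6a20a and Hnf4a lie farthest from the points.

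Levels are given below in log2 units relative to the 75th percentile of each array's intensities, and they compare arrays for 1 probe, not one gene with another. Markers fixed for the proximal tubule were present: all 15 were measurable, with a median difference of 0.05. This list is not separate from the set: Lrp2, Cubn, Slc34a1 and Slc5a12 belong to both. In 3 of the 15 (Slc22a7, Slc7a13 and Kap) the SD within groups was over 0.5 log2 units, or 20% against 9.01% of all genes. The largest shares of genes higher in the treated rats were in 3 other marker lists: intercalated cells (100%), erythrocytes (100%) and tubular injury (77.8%). The share was 60% in each of thick ascending limb, collecting duct principal cells, podocytes, endothelium, and smooth muscle with fibroblasts. It was 50% in distal convoluted tubule and 40% in macrophages and lymphocytes, beside 52.8% of all genes. Of 10 tubular injury markers 9 were tested (Sox9 had no named probe). At an unadjusted limma p under 0.05, 6 were higher, or 66.7%, against 12.2% of all genes (5.97% higher). Among them Spp1, the osteopontin gene, stood at 2.02 ± 0.36 (limma adjusted p of 0.208). Havcr1, which encodes the proximal tubule injury marker KIM-1, stood at -0.19 ± 0.47 and Vcam1 at -0.19 ± 0.20. With slide as a fixed block 3 of the 9 had an unadjusted limma p under 0.05, all higher. In that setting 31.6% of all genes had one, 19.5% of them all being higher and 12.1% lower. The log2 of the summed level of the 9 injury markers was 4.95 to 5.05 in vehicle rats and 6.13 to 6.73 in phenylbutazone rats. Such a sum is set mostly by the brightest probes. The mean deviation of the 9 from each gene's mean over the 6 arrays weighs genes alike. It was -0.50 to -0.22 in vehicle and 0.07 to 0.81 in phenylbutazone. The 5 erythrocyte markers were all higher, by a median of 0.48, with summed levels of 8.51 to 9.0 in vehicle and 8.79 to 9.48 in phenylbutazone. Their mean deviation was -0.42 to 0.04 in vehicle and -0.20 to 0.51 in phenylbutazone. The 5 intercalated cell markers were also all higher, by a median of 0.16, with summed levels of 5.98 to 6.4 in vehicle and 6.50 to 6.78 in phenylbutazone. The mean deviation of these 5 was -0.37 to -0.02 in vehicle and 0.005 to 0.30 in phenylbutazone. Of these 5, 2 had an unadjusted limma p under 0.05 (40%, against 12.2% of all genes). Slc4a1 is in both of the last lists. The part of these cells in the differences below was not tested.

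Among the carriers of sodium and bicarbonate, Slc4a4 encodes the electrogenic cotransporter that moves bicarbonate out through the basolateral membrane. Its level was 5.04, 5.08 and 5.16 in vehicle rats 1, 2 and 3 and 5.70, 5.50 and 5.52 in phenylbutazone rats 1, 2 and 3. Every treated rat lay above every vehicle rat, and the gap between the groups, 0.34, was wider than the spread within either group. The difference was 0.48 ± 0.10 with a 95% interval of 0.23 to 0.72 and a limma adjusted p of 0.255. The other probes of Slc4a4 gave 0.31 and 0.47, and in both of them too the groups did not overlap. On slide 2 alone the difference was 0.41. Over the 18 alternative ways of processing and grouping that were run it stayed between 0.39 and 0.52, with limma adjusted p values of 0.0689 to 0.618.

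Slc9a3 encodes the sodium-proton exchanger of the brush border, which works opposite Slc4a4 in bicarbonate recovery. It stood at -0.10 ± 0.13, with levels of 0.00 to 0.34 in vehicle and -0.06 to 0.18 in phenylbutazone, and the groups overlapped. A second probe gave -0.04 and the last of its 3 probes -0.74. On that probe the level was -1.54 and -1.40 in vehicle rats 1 and 2 of slide 1. It was between -3.18 and -2.54 on the 4 arrays of slide 2, vehicle rat 3 being the lowest. Whether slide or animal set vehicle rat 3 apart there cannot be told, and the cause was not tested.

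Slc27a2, which encodes a fatty acid transport protein and very long chain acyl-CoA synthetase, stood among the carriers of urate, ascorbate and fatty acids. It read 6.91, 7.0 and 6.82 in vehicle rats 1, 2 and 3 and 7.15, 7.27 and 7.29 in phenylbutazone rats 1, 2 and 3. The treated rats all lay above the vehicle rats, with a gap of 0.15. The difference was 0.33 ± 0.10, or 1.26-fold, with a limma adjusted p of 0.322. The other Slc27a2 probe gave 0.31, again without overlap, and slide 2 alone gave 0.42. Slc23a1, the sodium-coupled ascorbate carrier gene, stood at 0.31 ± 0.16: vehicle rats had 1.35 to 1.43, phenylbutazone rat 1 lay among them at 1.42, and phenylbutazone rats 2 and 3 had 1.69 and 2.00. The genes of the organic anion and urate carriers, Slc17a1 and Slc17a3, stood at 0.08 ± 0.13 and 0.05 ± 0.17 with overlapping groups.

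Slc5a12 encodes the sodium-coupled monocarboxylate carrier of lower affinity for lactate. Its level was 2.22, 2.22 and 2.19 in vehicle rats 1, 2 and 3 and 2.65, 2.64 and 2.42 in phenylbutazone rats 1, 2 and 3. The vehicle rats differed from each other by far less than the treated rats did, and the groups did not overlap. The difference was 0.36 ± 0.10, or 1.28-fold, with a limma adjusted p of 0.307. A second Slc5a12 probe gave 0.35, but there phenylbutazone rat 3 at 1.81 lay below vehicle rat 3 at 1.84. Slc5a8, which encodes the carrier of higher affinity for similar substrates, stood the other way at -0.37 ± 0.24, the lowest of the 34 differences. Its groups overlapped, with 1.51 to 1.88 in vehicle and 0.94 to 1.82 in phenylbutazone. Over the 18 alternatives the difference stayed between -0.61 and -0.16. The value of -0.61 came without phenylbutazone rat 2, the only treated rat within the vehicle range, so leaving it out had to widen the difference. Only that 1 of the 18 had an unadjusted limma p under 0.05, as did 7.78% of all genes there.

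**Figure D3:**
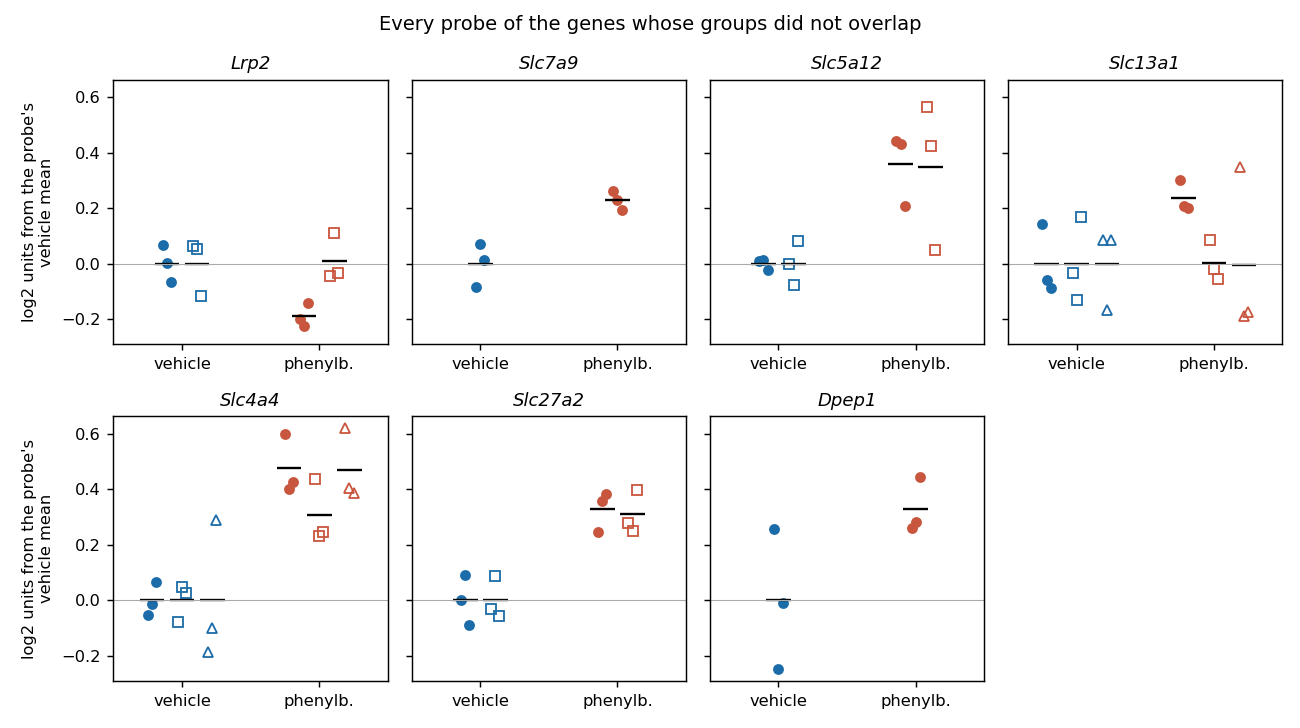
Every probe of the 7 genes whose groups did not overlap on the probe used (filled circles); open squares and triangles are the gene's other probes. The vertical axis is the log2 level minus the probe's vehicle mean, blue points are the 3 vehicle rats, red points the 3 phenylbutazone rats and black bars the group means; all probes of Slc4a4 and Slc27a2 lie apart, while the other probes of Lrp2 and Slc13a1 do not.

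The promoters of the 3 genes with the smallest p values are shown with those of the 2 genes whose promoters hold a match to the HNF4A motif, because Hnf4a is itself a member and its protein drives this gene program. Each window runs from 250 bases before to 50 bases after 1 RefSeq start of the gene in the assembly GRCr8, written 5′ to 3′ on the gene's strand, with letters of a motif match in capitals. They are Slc4a4 (chr14:19468233-19468532, minus strand), Slc27a2 (chr3:134257851-134258150, plus strand), Slc5a12 (chr3:117633637-117633936, plus strand), Slc3a1 (chr6:15394700-15394999, minus strand) and Pdzk1 (chr2:187064745-187065044, plus strand).
Slc4a4: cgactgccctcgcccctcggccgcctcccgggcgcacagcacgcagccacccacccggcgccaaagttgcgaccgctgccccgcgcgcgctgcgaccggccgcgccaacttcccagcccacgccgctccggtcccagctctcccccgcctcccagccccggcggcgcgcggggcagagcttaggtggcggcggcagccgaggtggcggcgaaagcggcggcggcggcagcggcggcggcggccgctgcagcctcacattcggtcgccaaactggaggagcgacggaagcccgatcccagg
Slc27a2: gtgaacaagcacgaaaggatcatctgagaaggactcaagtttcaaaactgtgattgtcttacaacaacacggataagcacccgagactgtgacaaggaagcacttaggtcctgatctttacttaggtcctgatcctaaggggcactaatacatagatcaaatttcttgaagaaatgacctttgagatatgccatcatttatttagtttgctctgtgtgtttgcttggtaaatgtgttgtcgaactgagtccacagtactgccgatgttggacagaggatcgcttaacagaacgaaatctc
Slc5a12: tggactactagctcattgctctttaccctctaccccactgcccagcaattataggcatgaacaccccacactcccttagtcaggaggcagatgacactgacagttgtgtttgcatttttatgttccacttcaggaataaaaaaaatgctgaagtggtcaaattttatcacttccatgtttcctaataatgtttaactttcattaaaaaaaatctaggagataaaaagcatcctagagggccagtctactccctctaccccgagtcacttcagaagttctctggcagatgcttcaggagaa
Slc3a1: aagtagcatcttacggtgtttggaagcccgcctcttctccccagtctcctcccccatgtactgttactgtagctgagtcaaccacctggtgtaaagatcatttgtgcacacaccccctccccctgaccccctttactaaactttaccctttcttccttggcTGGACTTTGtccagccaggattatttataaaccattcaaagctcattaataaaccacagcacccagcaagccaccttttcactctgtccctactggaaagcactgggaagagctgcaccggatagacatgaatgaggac
Pdzk1: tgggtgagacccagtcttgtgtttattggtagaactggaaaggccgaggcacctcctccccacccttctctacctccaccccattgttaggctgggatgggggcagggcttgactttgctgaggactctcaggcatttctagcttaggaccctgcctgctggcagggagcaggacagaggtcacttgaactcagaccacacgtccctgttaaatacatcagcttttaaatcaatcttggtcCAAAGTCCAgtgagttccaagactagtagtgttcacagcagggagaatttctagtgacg
The HNF4A motif was searched as CAAAGTCCA, by exact letters on both strands. Promoter windows were found for 32 of the 34 genes, 33 windows in all. The HNF4A letters stood in 2 of the 33 (6.06%) against 131 of 33469 windows of all genes (0.391%), and in 0 of 40 windows of the further uptake genes described at the end. In Slc3a1 the match is on the opposite strand, 89 to 81 bases before the start, and in Pdzk1 it is 9 to 1 bases before it. The expression differences of Slc3a1 and Pdzk1 were 0.09 ± 0.16 and -0.06 ± 0.11. The windows of Slc4a4, Slc27a2 and Slc5a12 hold no match, and their share of G and C was 78.0%, 41.7% and 41.7% beside a median of 55.0% over the windows of the set.

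Among the amino acid carriers, Slc7a9 and Slc3a1 encode the light and the heavy subunit of the brush border carrier for cystine and basic amino acids. Slc7a9 read 5.49, 5.65 and 5.59 in vehicle rats 1, 2 and 3 and 5.84, 5.80 and 5.77 in phenylbutazone rats 1, 2 and 3. The groups did not overlap, and the difference was 0.23 ± 0.09, or 1.17-fold, with a limma adjusted p of 0.406. In the partner Slc3a1 the groups were not apart: its treated rats, 7.50 to 7.84, overlapped the vehicle rats, 7.36 to 7.80. The carriers of neutral amino acids Slc6a19 and Slc6a18 stood at 0.13 ± 0.14 and 0.19 ± 0.16. On the basolateral side, Slc7a7 (basic amino acids) and Slc7a8 (neutral amino acids) stood at 0.05 ± 0.19 and 0.06 ± 0.12. Slc6a13, a carrier of GABA and betaine, stood at -0.0025 ± 0.12, and Slc6a20a, the imino acid carrier, at -0.10 ± 0.28. The groups overlapped in 7 of the 8 amino acid carriers, Slc7a9 being the exception.

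Of the endocytic receptors, Lrp2 encodes megalin, the large receptor for filtered proteins. It was the only gene of the 34 that lay lower in all treated rats than in any vehicle rat on the probe used, with 6.46, 6.39 and 6.33 in vehicle rats 1, 2 and 3 and 6.19, 6.17 and 6.25 in phenylbutazone rats 1, 2 and 3. The gap between the groups was 0.08, and the difference was -0.19 ± 0.09 (1.14-fold lower); its limma adjusted p was 0.462. The second Lrp2 probe gave 0.01 with overlapping groups. Cubn, the gene of the partner receptor cubilin, stood at -0.26 ± 0.16, with 5.78, 5.68 and 6.19 in vehicle rats 1, 2 and 3 and 5.64, 5.51 and 5.73 in phenylbutazone rats 1, 2 and 3. Vehicle rat 3 was the highest of the 6: against it the treated rats were lower by a mean of 0.57, and against vehicle rats 1 and 2 by a mean of 0.11. Amn, which encodes the anchor that brings cubilin to the surface, stood at 0.07 ± 0.11.

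In all 3 phosphate carriers the groups overlapped. Slc34a1, the main sodium-phosphate cotransporter gene of the brush border, read 8.17 to 8.22 in vehicle and 8.18 to 8.38 in phenylbutazone, a difference of 0.09 ± 0.10. Slc34a3, a second brush border phosphate cotransporter gene, had 5.08, 5.14 and 5.29 in vehicle rats 1, 2 and 3 and 5.35, 5.34 and 5.23 in phenylbutazone rats 1, 2 and 3. Phenylbutazone rat 3 lay below vehicle rat 3, and the difference was 0.14 ± 0.10 with a limma adjusted p of 0.618. Slc20a2, a phosphate carrier gene found in most tissues, stood at 0.22 ± 0.22, and its other probes gave -0.20, 0.03 and 0.06.

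Of the sulfate and dicarboxylate carriers, Slc13a1 encodes the brush border sulfate cotransporter. It read 4.49, 4.29 and 4.26 in vehicle rats 1, 2 and 3 and 4.65, 4.56 and 4.55 in phenylbutazone rats 1, 2 and 3. The treated rats lay above the vehicle rats by a gap of 0.06, and the difference was 0.24 ± 0.11 with a limma adjusted p of 0.438. The other Slc13a1 probes gave 0.0032 and -0.0036 with overlapping groups. Slc26a1, the basolateral sulfate exchanger gene, stood at -0.04 ± 0.12. The dicarboxylate and citrate carrier genes Slc13a2 (brush border) and Slc13a3 (basolateral) stood at -0.12 ± 0.15 and -0.01 ± 0.10, with 8.40 to 8.56 in vehicle and 8.38 to 8.55 in phenylbutazone for Slc13a3.

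Of the brush border enzymes, Dpep1 encodes a dipeptidase that acts on products of glutathione breakdown. It read 4.07, 3.57 and 3.81 in vehicle rats 1, 2 and 3 and 4.08, 4.10 and 4.26 in phenylbutazone rats 1, 2 and 3. The groups met almost edge to edge, since vehicle rat 1 lay just below phenylbutazone rat 1. The difference was 0.33 ± 0.15 with a limma adjusted p of 0.449. Anpep, which encodes aminopeptidase N, stood at -0.28 ± 0.20 and Ggt1, which encodes the enzyme that starts glutathione breakdown outside the cell, at -0.13 ± 0.31. Miox, which encodes the enzyme that opens the ring of myo-inositol, had 9.12, 8.97 and 8.99 in vehicle rats 1, 2 and 3 and 8.99, 9.0 and 8.89 in phenylbutazone rats 1, 2 and 3. Those groups overlapped, at -0.07 ± 0.10 with a limma adjusted p of 0.797. Pdzk1, which encodes a scaffold that holds brush border carriers in place, stood at -0.06 ± 0.11.

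**Figure D4:**
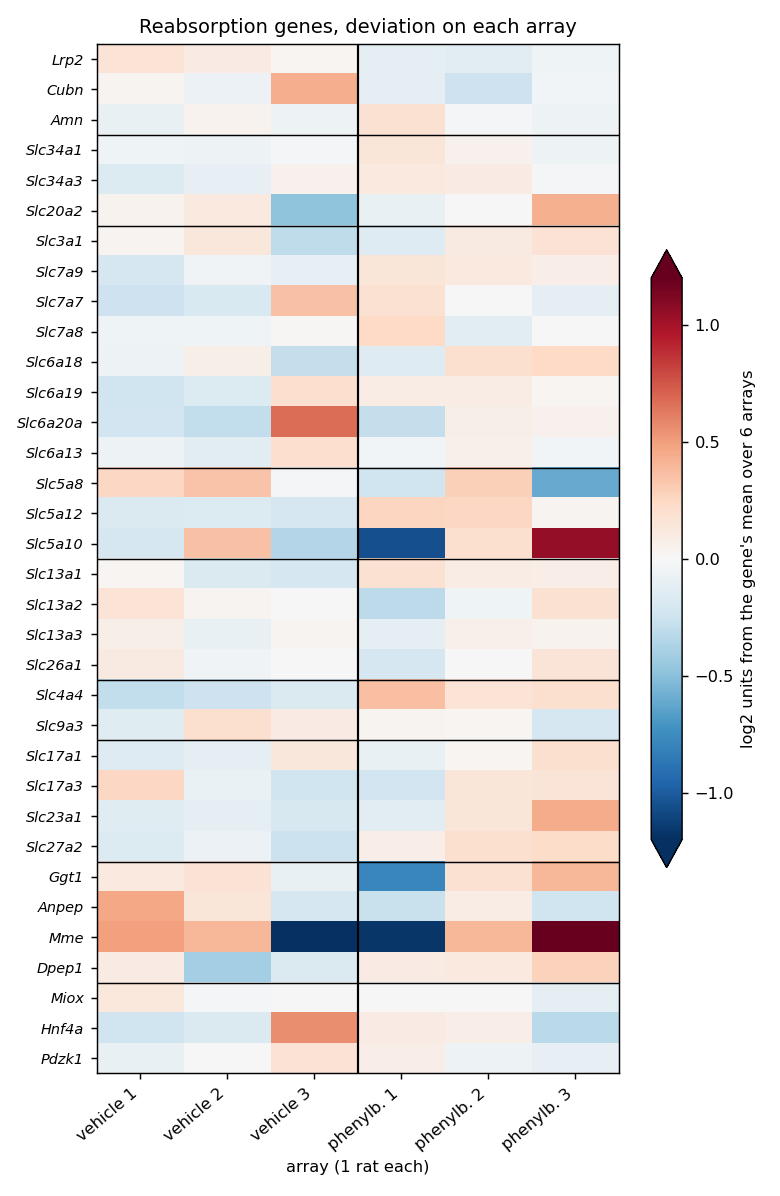
Each row is 1 of the 34 genes and each column 1 array; colour gives the log2 level minus the gene's mean over the 6 arrays, red above and blue below, with values beyond the ends of the scale drawn in its end colours, and black lines separate the roles and the groups. Slc4a4, Slc5a12 and Slc27a2 lie below their mean in every vehicle column and above it in every phenylbutazone column. Some of these cells are nearly white, such as Slc5a12 in phenylbutazone rat 3. The strongest colours, those of Mme and Slc5a10, set vehicle rat 3 and phenylbutazone rat 1 against phenylbutazone rat 3.

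The widest differences within the set lay between rats of the same group. Mme, which encodes neprilysin, an endopeptidase of the brush border, had 2.13, 2.03 and 0.32 in vehicle rats 1, 2 and 3 and 0.47, 2.03 and 2.82 in phenylbutazone rats 1, 2 and 3. Vehicle rat 3 and phenylbutazone rat 1 were low and phenylbutazone rat 3 was high, while the means differed by 0.29 ± 0.73, with a 95% interval of -1.5 to 2.07. Its SD within groups, 1.11, was at the 98.5th percentile of all genes. Slc5a10, which encodes a sodium-coupled carrier of mannose and fructose, had 2.48, 3.04 and 2.34 in vehicle rats 1, 2 and 3 and 1.63, 2.88 and 3.74 in phenylbutazone rats 1, 2 and 3. Here too phenylbutazone rat 1 and vehicle rat 3 were the lowest and phenylbutazone rat 3 the highest, with an SD within groups of 0.79. These were the only 2 of the 34 genes with an SD within groups over 0.5, or 5.88% of the set against 9.01% of all genes.

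That order, with vehicle rat 3 and phenylbutazone rat 1 as the lowest rats and phenylbutazone rat 3 as the highest, was picked out after the values were seen. It was found in 6 of the 34 genes (17.6%: Mme, Slc5a10, Ggt1, Slc3a1, Slc6a18 and Slc20a2) and in 2.89% of all genes. Mme and Slc5a10, in which the order was described above, are counted in the 6, so the share of the set is no test of it. Ggt1 had 4.38 in phenylbutazone rat 1 and 5.56 in phenylbutazone rat 3, with 5.07 to 5.35 in the other rats. The same order was found in 4 of the 48 further uptake genes tested (8.33%: Lrpap1, Slc7a13, Mep1b and Slc22a5) and in 2 of the 15 proximal tubule markers (Slc7a13 and Slc22a7). From the lowest to the highest rat Lrpap1 spanned 0.32 and Slc22a5 0.71, less than Ggt1 at 1.18 and Mme at 2.51, while Slc7a13 and Mep1b spanned 3.94 and 3.12. Slc7a13, which encodes a brush border amino acid carrier that pairs with the Slc3a1 protein, had 3.90, 4.38 and 1.99 in vehicle rats 1, 2 and 3 and 1.46, 4.37 and 5.41 in phenylbutazone rats 1, 2 and 3. Mep1b, which encodes a subunit of the brush border protease meprin, had 2.85, 3.01 and 0.45 in vehicle and 0.29, 2.73 and 3.41 in phenylbutazone, in the same order of rats. The second probes of Slc7a13, Mep1b and Slc3a1 gave the same 2 lowest rats and the same highest rat. The other probes of Slc20a2 and Slc6a18 did not keep the order. Neither did the second probe of Slc22a5, where vehicle rat 3 was the highest at 1.49. Slc22a7, an organic anion carrier gene, was at -4.90 in phenylbutazone rat 1, -4.31 in vehicle rat 3 and -0.87 in phenylbutazone rat 3. Both treatments have a rat at the low end, so that in the 6 genes plotted the rats of 1 group differed by more than the group means did.

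**Figure D5:**
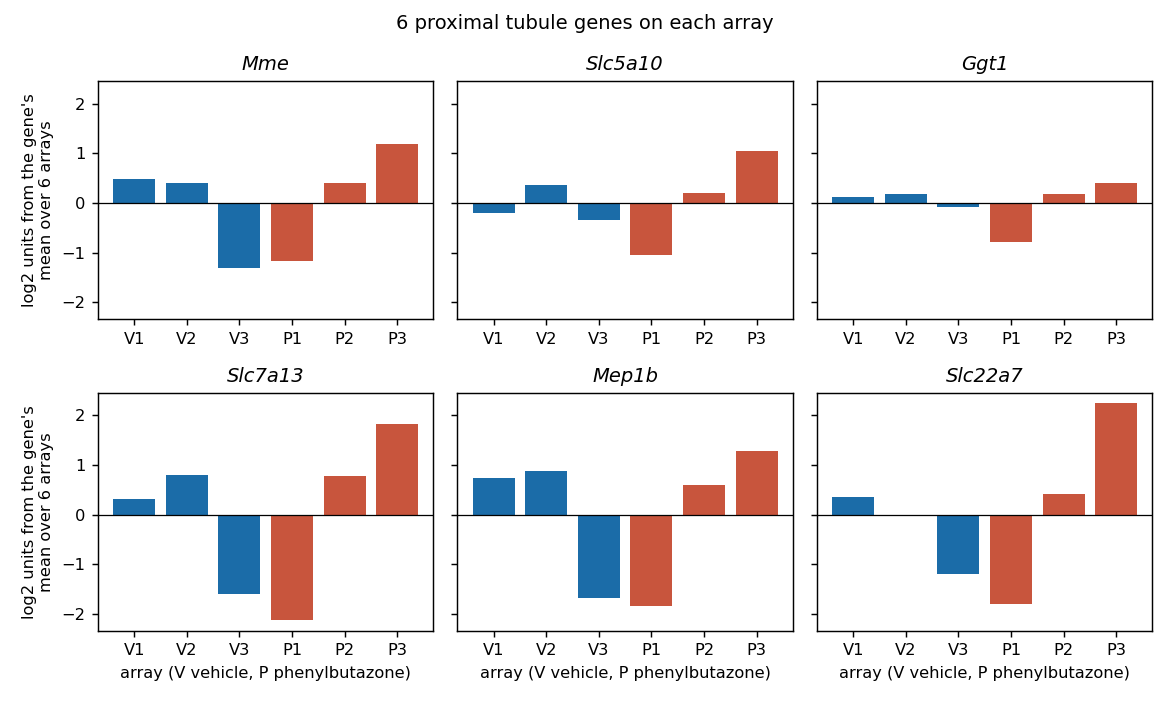
Log2 level minus the gene's mean over 6 arrays for Mme, Slc5a10 and Ggt1 of the set (top) and Slc7a13, Mep1b and Slc22a7 (bottom), 1 bar per rat, blue for vehicle (V1 to V3) and red for phenylbutazone (P1 to P3). In each of the 6 genes V3 and P1 are the lowest bars and P3 is the highest.

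Vehicle rat 3 also stood apart from the other vehicle rats in the opposite direction in some genes. Such extreme values were not particular to the set. Of all 29938 genes, vehicle rat 3 had the lowest value in 10257 and the highest in 6999, more at either end than any other rat. Of the 34 genes vehicle rat 3 had the lowest value in 9, more than any other rat. It had the highest in 7, fewer than phenylbutazone rat 3 with 12 and phenylbutazone rat 1 with 8. Hnf4a, which encodes a nuclear receptor that maintains the proximal tubule program, had 3.24, 3.30 and 4.04 in vehicle rats 1, 2 and 3 and 3.58, 3.56 and 3.16 in phenylbutazone rats 1, 2 and 3. Its group difference was -0.09 ± 0.25. Its 3 other probes also had their highest value in vehicle rat 3, and their group differences were -0.02, 0.02 and -0.02. Against vehicle rats 1 and 2 the treated rats had a mean difference of 0.16 in Hnf4a, and against vehicle rat 3 one of -0.61, so the sign depends on which vehicle rats are used. Slc6a20a behaved likewise, with 1.53, 1.46 and 2.42 in vehicle rats 1, 2 and 3 and 1.47, 1.83 and 1.81 in phenylbutazone rats 1, 2 and 3, and so did Slc7a7 (2.53, 2.60 and 3.13 in vehicle and 2.97, 2.78 and 2.67 in phenylbutazone). Slide and animal cannot be told apart for vehicle rat 3.

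With slide as a fixed block, a setting that takes vehicle rat 3 as the only vehicle animal of slide 2, 0 of the 34 genes passed (limma, lowest adjusted p of 0.0660, Cubn) and 7 had an unadjusted p under 0.05, or 20.6% against 31.6% of all genes. The 4 that were higher were Slc4a4, Slc5a12, Slc13a1 and Slc27a2 (19.5% of all genes), and the 3 that were lower were Cubn, Slc6a20a and Hnf4a (12.1% of all genes). Without vehicle rat 3 each group lies on a slide of its own, so treatment and slide cannot be told apart; there 0 of the 34 passed while 814 of all genes did, and 8 had an unadjusted p under 0.05 (23.5% against 22% of all genes): Slc4a4, Slc5a12, Slc27a2, Slc7a9, Slc34a3 and Slc6a19, higher, and Lrp2 and Anpep, lower. Slc4a4, Slc5a12 and Slc27a2 appear in both lists.

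Of 50 further genes of proximal tubule uptake, 48 were tested and 0 passed (limma). By unadjusted limma p under 0.05, 4 were higher and 2 lower, 12.5% of those tested against 12.2% of all genes (5.97% higher and 6.24% lower). The median difference was 0.00. On the higher side, Slc5a3, the sodium-coupled myo-inositol carrier gene, stood at 0.88 ± 0.33, with other probes at 0.83 and 0.88. Its level was 2.08, 2.06 and 1.24 in vehicle rats 1, 2 and 3 and 2.15, 2.79 and 3.09 in phenylbutazone rats 1, 2 and 3, so that the groups lay only just apart, and on both other probes they overlapped. Slc15a1, a peptide carrier gene, stood at 0.39 ± 0.16, with other probes at 0.67 and 0.72. Slc6a8, the creatine carrier gene, stood at 0.30 ± 0.12 and Pdzk1ip1, whose product binds the Pdzk1 scaffold, at 0.25 ± 0.10. The other Slc6a8 probe gave 0.12 with overlapping groups. On the lower side, Slc6a12, a betaine carrier gene, stood at -0.42 ± 0.16, and its other probe gave -0.15 with overlapping groups. Cltrn, which encodes a chaperone of brush border amino acid carriers, stood at -0.15 ± 0.10, and Pth1r, the parathyroid hormone receptor gene, at -0.34 ± 0.22. In Pth1r vehicle rat 3 was the highest at 5.29, and against vehicle rats 1 and 2 the treated rats had a mean difference of -0.12. The limma adjusted p values of these 7 genes were 0.378 to 0.568.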

How the data were processed

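Gene expression in renal cortex of 6 rats was measured on one-colour Agilent arrays. Per the file headers and the submitters' processing notes, images were read with Agilent Feature Extraction 10.7, and the deposited processed signal is a background-subtracted intensity per spot, not scaled between arrays. The deposited value table holds a ratio, the same intensity over the array's 75th percentile, and was used as an alternative. Control spots and 40 probes with an outlier flag were left out, intensities were taken to log2 and the 75th percentile of each array was subtracted. The filter kept 41006 probes that were well above background on 3 or more of the 6 arrays. Of these the probe with the highest mean level stood for its gene, which gave 29938 genes. Accessions were named through a RefSeq table of GRCr8, which named 28206 of 61537 probes; promoter sequences are RefSeq's in the same assembly. No spot was saturated, and each array had 65.2% to 68.4% of its probes well above background.

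Phenylbutazone and vehicle were compared with lmFit and eBayes of limma 3.58.1 (R 4.3.3), two-sided, with Benjamini-Hochberg adjustment over all genes. Errors after ± are standard errors. The fit was tested on simulated data. With 3 arrays per group the number of animals limits the precision. Values on every array are given for genes whose groups did not overlap, with an unadjusted p under 0.05 or a difference of at least 0.5 log2 units, otherwise for the gene of smallest p of each role, and of the further genes the 4 of smallest p in each direction were taken, of which 1 is not reported here. Cubn, Hnf4a, Slc6a20a, Slc7a7, Mme, Slc5a10, Slc5a8, Slc23a1, Ggt1, Slc7a13, Mep1b and Slc22a7 were singled out after their values were seen. The genes and lists were chosen with earlier results of these data known. The series design calls the 3 animals of each group biological replicates.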

Additional observations from a re-analysis of the deposited data

How the results depend on the processing

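With 3 rats per group, 1 vehicle rat beside the treated rats on slide 2 and most differences under 0.5 log2 units, these arrays limit what can be told, and the cause of the changes below was not tested. In all 18 alternatives 0 of the 34 reabsorption genes passed the adjusted threshold (limma). Over all genes, where the main setting called 0 (3657 at an unadjusted p under 0.05), 2 passed with normexp background correction, 1 with quantile normalization, 8 with an intensity trend and 1 with slide as a random block. Leaving out 1 rat gave 0 to 814, the highest without vehicle rat 3. The reabsorption genes with an unadjusted limma p under 0.05 numbered 7 with an intensity trend (20.6% against 12.7% of all genes). They numbered 7 with slide as a fixed block (20.6% against 31.6%). With 1 rat left out they numbered 2 to 8 (5.88% to 23.5%, against 7.4% to 22% of all genes). The main fit did not pair rats by replicate number. Deviations of rats with the same number correlated at -0.0301, 0.0114 and -0.0737 over 29938 genes, and those of unlike numbers at -0.0995 to 0.1019. With 3 rats per group these values cannot decide whether rats were paired. With a replicate block 2 reabsorption genes had an unadjusted limma p under 0.05 (5.88% against 9% of all genes), and 0 of all genes passed. The median of the 34 genes was -0.021 with quantile normalization and 0.0035 with slide as a random block. That of the 48 further genes was 0.052 with median scaling, -0.045 with quantile normalization and -0.021 to 0.065 with 1 rat left out.

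Of 612 directions compared over the 34 genes, 57 reversed, and 14 genes never did. Median scaling gave Slc6a13 0.045, Slc13a3 0.040 and Slc26a1 0.0091. Normexp gave Slc7a8 -0.016, Slc6a20a 0.0097, Slc17a1 -0.085, Slc17a3 -0.041, Miox 0.015 and Pdzk1 0.046. Quantile normalization gave Amn -0.015, Slc34a1 -0.027, Slc3a1 -0.028, Slc7a8 -0.010 and Slc17a3 -0.034. The mean of all probes gave Slc7a8 -0.017 and Slc6a20a 0.057. Slide as a fixed block and slide 2 alone both gave Slc7a7 -0.32, Slc6a19 -0.13, Slc17a1 -0.100, Ggt1 0.024 and Anpep 0.065, and slide as a random block gave Slc7a7 -0.19, Slc6a19 -0.036 and Slc17a1 -0.035. With 1 rat left out the ranges that crossed 0 were -0.0041 to 0.12 for Amn, -0.37 to 0.22 for Ggt1, -0.24 to 0.16 for Hnf4a, -0.30 to 0.94 for Mme, -0.12 to 0.014 for Pdzk1, -0.24 to 0.0040 for Slc13a2, -0.056 to 0.047 for Slc13a3, -0.058 to 0.18 for Slc17a3, -0.12 to 0.053 for Slc26a1, -0.045 to 0.19 for Slc3a1, -0.36 to 0.69 for Slc5a10, -0.072 to 0.098 for Slc6a13, -0.27 to 0.21 for Slc6a20a, -0.060 to 0.24 for Slc7a7 and -0.042 to 0.14 for Slc7a8.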
